A study of Homo sapiens with 11 samples.

Results

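The transcripts described here are those of 10 genes that encode carriers of amino acids across the plasma membrane: SLC7A11, SLC7A5, SLC3A2, SLC7A1, SLC7A3, SLC1A4, SLC1A5, SLC6A9, SLC38A1 and SLC38A2. They were taken by name from a table of 38021 genes, and all 10 were in it and passed the filter on low counts. RNA was sequenced from HEK293T cells, an established line of human embryonic kidney cells, labelled wild type and kept in high-glucose medium with serum and glutamine. Cells were treated for 6 h with vehicle (0.1% DMSO), with thapsigargin (Tg) at 500 nM, with the compound AA147 at 10 µM, or with the compound AA132 at 0.1, 0.3, 1, 3, 6, 10, 15 or 30 µM. Each of these 11 conditions has 3 numbered libraries, so n = 3 throughout. The labels do not say whether these come from separate cultures, so every p-value measures the spread between libraries, which may be technical. Tg is a general stressor of the endoplasmic reticulum (ER) that stops its calcium pump, and the other agents are small molecules studied for their effect on protein homeostasis in the ER.

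Cells take up amino acids through carriers that each serve a class of substrates. SLC3A2 (CD98, 4F2hc) is a heavy chain without transport activity of its own that joins the light chains SLC7A11 (xCT, which brings in cystine in exchange for glutamate) and SLC7A5 (LAT1, which exchanges large neutral amino acids) and carries them to the membrane. When ER stress or a lack of amino acids activates the integrated stress response, translation slows and the transcription factor ATF4 is made. ATF4 is known to drive genes of amino acid uptake and synthesis, and SLC7A11 is known as a target of both ATF4 and the oxidative stress factor NRF2.

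Library totals ran from 32.3 to 37.96 M counts, and the next lowest was 36.4 M counts. Of the HEK293 genes used to check the line, KRT8 (624 to 1012 CPM), KRT18, VIM, NEFL, NEFM and CDH2 were present in all 33 libraries. CPM are counts scaled to a common library size. The leukocyte, endothelial and liver markers PTPRC, CD3E, PECAM1, CDH5, ALB and APOA1 stayed at or under 0.218 CPM. Of the fibroblast markers DCN also stayed near 0, at up to 0.081 CPM, while COL1A1 was at 19.7 to 49.8 CPM and PDGFRA at 0.584 to 2.12 CPM.

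Certain libraries stood apart from the others of their condition, which touches several results below. In vehicle library 1, genes with a transcript of at least 6 kb were low against those of at most 2 kb. The median log2 deviation from the mean of the other libraries of the condition was lower in the long genes by 0.663. In the other 32 libraries this difference lay between -0.249 and 0.393. The lowest of those values was that of AA132 30 µM library 3. The library labelled AA132 1 µM library 1 lay near the 3 µM libraries in some genes, and the library labelled AA132 3 µM library 3 lay near the 1 µM libraries. HMOX1, a marker of oxidative stress, was at 39.8 CPM in the former against 11.5 and 12.1 CPM at 1 µM, and at 14.2 CPM in the latter against 49.3 and 43.9 CPM at 3 µM. In AA132 10 µM library 1 HMOX1 was at 70.7 CPM, against 126 and 118 CPM in the other libraries of that dose. In AA147 library 1 HMOX1 was at 50.4 CPM, against 32.9 and 33.1 CPM in the other AA147 libraries. In AA132 1 µM library 1 SLC3A2 (245 CPM) and SLC6A9 (29.8 CPM) lay between the doses, and SLC7A5 (72.1 CPM) lay with the 1 µM libraries. Whether labels were exchanged was not tested. Values without these libraries are given for some of the calls that changed and some of the values that moved, not for all of them.

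Under Tg all 10 transporter transcripts rose, by 0.81 (SLC1A5) to 3.96 (SLC7A3) on the log2 scale, with a median of 1.81. The RNA was bulk RNA, in which fewer cells and less RNA per cell cannot be told apart. In the same comparison 16.2% of all genes tested were called higher, at a Benjamini-Hochberg adjusted p under 0.05 in edgeR's quasi-likelihood test, and the median log2 fold change of all 17800 genes was 0.0048. Under AA132 fewer of the 10 were called higher, in a number that grew with dose. At 6 µM 4 of the 10 were called higher (0.865% of all genes were), namely SLC7A11, SLC7A5, SLC3A2 and SLC6A9. At 10 µM SLC38A2 joined them, which made 5 (1.03% of all genes). At 15 µM 8 were called higher, all but SLC7A3 and SLC38A1 (1.97% of all genes). At 30 µM 9 were called higher, all but SLC38A1 (3.86% of all genes). No member was called lower in any comparison with vehicle. Under AA147 at 10 µM SLC7A5 was the only member called higher, and the single gene so called in that comparison (0.00562% of all genes). There 9 of the 10 members had a log2 fold change above 0. Of the members 7 had an unadjusted edgeR p under 0.05, beside 1211 of all 17800 genes. The vehicle libraries are shared by all of these comparisons.

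**Figure D1:**
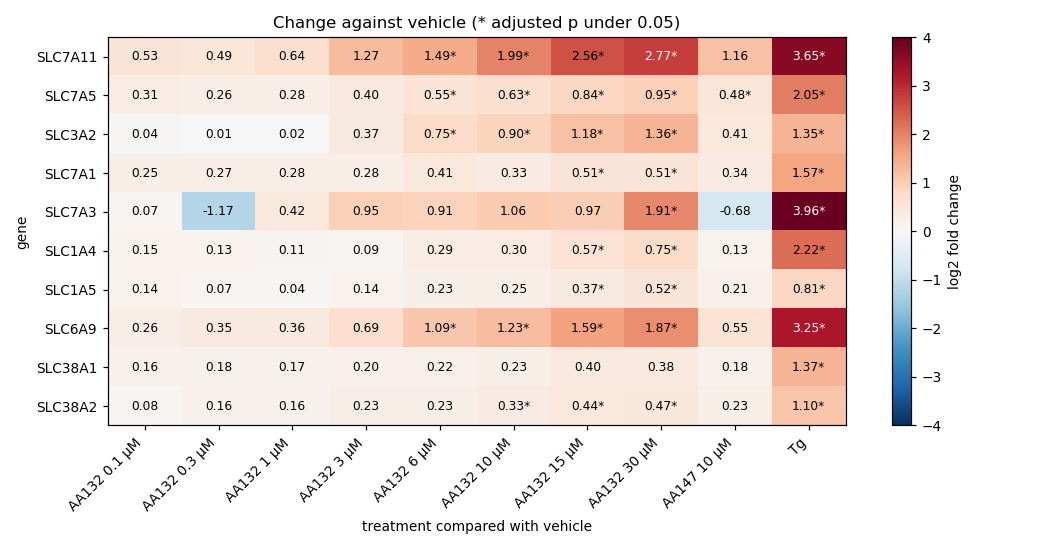
Log2 fold change of each transporter transcript (rows) against vehicle for each treatment (columns), from the edgeR fit, with an asterisk where the adjusted p was under 0.05. All 10 cells carry an asterisk under Tg, 9 at 30 µM AA132, and none at 0.1 to 3 µM.

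At the lowest doses no member passed the threshold in edgeR. At 0.1, 0.3 and 1 µM AA132 0 of the 10 were called (0% of all genes), and DESeq2 called 0 at each dose. An unadjusted edgeR p under 0.05 was found for 2, 4 and 5 members, and for 798, 981 and 1058 of all 17800 genes. At 3 µM edgeR again called 0 of the 10 (0.101% of all genes were called higher), and DESeq2 called 3. There 6 members had an unadjusted edgeR p under 0.05, as did 1636 of all 17800 genes. The median log2 fold changes of the members at 0.1, 0.3, 1 and 3 µM were 0.154, 0.166, 0.222 and 0.322. Without the 1 µM library 1 and 3 µM library 3, SLC7A11, SLC7A5, SLC3A2 and SLC6A9 were called at 3 µM, so that the count there was 4. The shares of all genes called by DESeq2 and in this fit are not given. These counts therefore do not set the members apart from other genes.

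The basal levels of these transcripts lay far apart. Expressed per kb of the canonical transcript, vehicle cells had most SLC1A5 (129 ± 13.4 CPM per kb, SD), followed by SLC3A2 (110 ± 13.8) and SLC38A2 (90.5 ± 14.0), and neighbours in this trio differed by about their spread. SLC7A5 came next at 13.2 ± 0.279 CPM per kb. SLC7A1 (8.85 ± 2.17), SLC1A4 (7.39 ± 0.568), SLC38A1 (7.28 ± 2.61) and SLC6A9 (6.31 ± 0.561) formed a group whose neighbours did not differ beyond their spread. SLC7A11 stood at 0.522 ± 0.207 and SLC7A3 at 0.065 ± 0.032 CPM per kb. Under Tg this order moved, and SLC3A2 was highest at 281 ± 10.5 CPM per kb, before SLC1A5 at 227 ± 6.54. SLC6A9 then reached 60.0 ± 1.16 CPM per kb and lay above SLC7A5 at 54.8 ± 1.31. SLC7A11 reached 6.58 ± 0.281 CPM per kb under Tg and was still below all others but SLC7A3.

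Because these transcripts rose together, the sequences before their start sites were searched for elements known to be bound in stress responses. RefSeq windows on GRCh38.p14, from 250 bases before to 50 bases after a start, were at hand for 8 members (14 windows). These did not include SLC7A11 and SLC7A3. Both strands were searched for TGATGNAA, the CEBP-ATF element that ATF4 binds, for TGACNNNGC, the core of the antioxidant element that NRF2 binds, and for the ER stress element, CCAAT followed after 9 bases by CCACG. TGATGNAA was present in 5 of the 14 windows and in 3.62% of all 35116 windows, TGACNNNGC in 4 of the 14 and in 13.3% of all, and the ER stress element in 0 of the 14 and in 0.0769% of all. No matches of different elements overlapped in these windows. The SLC38A1 and SLC1A5 windows with TGATGNAA and the SLC1A5 window with TGACNNNGC have start sites that GENCODE v44 does not annotate. In these SLC1A5 windows 91 and 63 of the 120 bases before the start lay in exons of the gene. The 4 stretches printed here show matches around start sites that GENCODE v44 also annotates, from 120 bases before to 10 bases after the start, on the strand of the gene, with the matched letters in capitals. SLC1A4 holds the CEBP-ATF element on the opposite strand at -7 to 1, and the other three hold the antioxidant core, at -37 to -29 in SLC3A2, at -2 to 7 in SLC7A5 and at -85 to -77 in SLC7A1. The SLC3A2 and SLC7A1 windows also hold the CEBP-ATF element, at 38 to 45 on the opposite strand and at 8 to 15, which the printed stretches do not cover in full. A match of letters is a description of the window and was not tied to binding here.
SLC1A4 (chr2:64989279-64989408, plus strand): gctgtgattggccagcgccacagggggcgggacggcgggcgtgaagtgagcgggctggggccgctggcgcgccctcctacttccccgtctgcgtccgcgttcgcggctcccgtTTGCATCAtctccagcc
SLC3A2 (chr11:62881579-62881708, plus strand): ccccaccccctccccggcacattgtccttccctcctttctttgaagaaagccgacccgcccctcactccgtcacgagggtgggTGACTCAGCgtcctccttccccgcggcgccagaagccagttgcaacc
SLC7A5 (chr16:87869498-87869627, minus strand): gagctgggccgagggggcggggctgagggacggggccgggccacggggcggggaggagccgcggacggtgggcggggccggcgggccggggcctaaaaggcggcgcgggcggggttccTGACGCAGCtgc
SLC7A1 (chr13:29595679-29595808, minus strand): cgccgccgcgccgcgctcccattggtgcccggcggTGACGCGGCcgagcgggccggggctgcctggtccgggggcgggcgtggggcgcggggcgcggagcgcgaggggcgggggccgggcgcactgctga

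SLC7A11, the cystine and glutamate exchanger, had the largest rise of the members at 6 to 30 µM AA132. The gene lies on chromosome 4 (138164097 to 138242349, minus strand, 12 exons in the canonical transcript, GENCODE v44 on GRCh38). The vehicle libraries 1 to 3 had 2.74, 6.35 and 6.02 CPM, and the first of these is the library with low long transcripts. At 6 µM AA132 the libraries had 13.9, 15.4 and 13.3 CPM, at 10 µM 20.0, 18.9 and 21.4, and at 15 µM 30.2, 28.5 and 30.7. From 6 µM upward every AA132 library lay above every vehicle library.
At 30 µM libraries 1 and 2 had 41.4 and 40.0 CPM, while library 3 had 22.2 CPM, below the 15 µM values. Under Tg SLC7A11 stood at 63.8, 66.1 and 60.7 CPM, above every other library of the series. The log2 fold change was 1.49 (SE 0.30) at 6 µM, 1.99 (SE 0.30) at 10 µM, 2.56 (SE 0.29) at 15 µM and 2.77 (SE 0.30) at 30 µM AA132, with edgeR adjusted p-values of 0.0044, 9.6e-05, 9.02e-07 and 1.22e-07. Under Tg it was 3.65 (SE 0.30, adjusted p = 9.59e-12).
Without vehicle library 1 the log2 fold change was 2.48 at 30 µM AA132 and 3.35 under Tg, and without AA132 30 µM library 3 it was 3.01 at 30 µM. The AA147 libraries had 13.8, 9.38 and 10.7 CPM, all above vehicle, but the difference did not pass the threshold (log2 fold change 1.16, SE 0.30, adjusted p = 0.243). Over the alternatives tried, that adjusted p ran from 3.87e-18, with no filter on low counts, to 0.999, with only these 2 conditions in the fit. Without 1 µM library 1 and 3 µM library 3 it was 0.00542, at the same log2 fold change, and with vehicle library 1 also left out it was 0.027, at 0.87. The library labelled 1 µM library 1 had 13.3 CPM against 5.06 and 5.16 CPM in the others, and the library labelled 3 µM library 3 had 6.49 CPM against 15.5 and 14.5 CPM. An antisense gene, SLC7A11-AS1 (chromosome 4, 138057464 to 138178177, plus strand), overlaps SLC7A11, and whether counting used strand is not stated. It had 2 to 6 counts in vehicle and up to 66.8 counts under Tg, against 2228 to 2421 counts for SLC7A11 under Tg.

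SLC7A5, the light chain of the large neutral amino acid exchanger LAT1, changed less in fold and varied little between libraries. It lies on chromosome 16 (87830023 to 87869507, minus strand, 10 exons). Vehicle libraries had 59.1, 61.6 and 60.1 CPM, and all 30 libraries of the treatments were above them. The AA147 libraries had 85.3, 82.2 and 85.2 CPM (log2 fold change 0.48, SE 0.09, edgeR adjusted p = 0.0278), with no overlap with vehicle.
That AA147 call was lost without any 1 of the AA147 libraries, or without vehicle library 2 or 3 (adjusted p 0.0904 to 0.161). With only these 2 conditions in the fit the adjusted p was 0.568, and the lowest value over the alternatives was 1.55e-06. The AA132 libraries had 85.6, 93.4 and 86.1 CPM at 6 µM and 72.3, 102 and 106 CPM at 10 µM, where library 1 was low. At 15 µM they had 101, 111 and 111 CPM, and at 30 µM 116, 115 and 118 CPM.
The log2 fold change was 0.55 (SE 0.09, adjusted p = 0.000407) at 6 µM, 0.63 (SE 0.09, adjusted p = 4.3e-05) at 10 µM and 0.95 (SE 0.09, adjusted p = 1.47e-08) at 30 µM. Without 10 µM library 1 it was 0.78 at 10 µM. By p-value SLC7A5 ranked 3 of 17800 genes at 30 µM. Under Tg the libraries had 253, 253 and 243 CPM, apart from all others, with a log2 fold change of 2.05 (SE 0.09, adjusted p = 1.47e-18).

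SLC3A2, the shared heavy chain, reached a mean of 532 CPM at 30 µM AA132, beside 529 CPM under Tg. The gene is on chromosome 11 (62856004 to 62888880, plus strand, 9 exons). Vehicle libraries had 238, 192 and 193 CPM, and library 1 was high, as other short transcripts were in it. At 0.1, 0.3 and 1 µM AA132 the libraries lay between 193 and 245 CPM, within reach of vehicle.
At 3 µM libraries 1 and 2 had 300 and 295 CPM and library 3 had 209 CPM. The values were 365, 333 and 353 CPM at 6 µM, 277, 435 and 450 CPM at 10 µM, 427, 482 and 503 CPM at 15 µM, and 524, 508 and 564 CPM at 30 µM. Tg libraries had 539, 507 and 543 CPM and overlapped those of 30 µM AA132.
Against vehicle the log2 fold change was 0.75 (SE 0.13, adjusted p = 0.000645) at 6 µM, 0.90 (SE 0.13, adjusted p = 4.3e-05) at 10 µM, 1.18 (SE 0.13, adjusted p = 1.78e-07) at 15 µM and 1.36 (SE 0.13, adjusted p = 1.47e-08) at 30 µM. Without 10 µM library 1 it was 1.08 at 10 µM. Under Tg it was 1.35 (SE 0.13, adjusted p = 2.25e-10). Under AA147 the libraries had 266, 265 and 296 CPM, above vehicle, with a log2 fold change of 0.41 that did not pass (adjusted p = 0.421). It passed without 1 µM library 1, 3 µM library 3 and vehicle library 1 (0.52, adjusted p = 0.0263).

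The light chains did not keep a fixed ratio to the heavy chain. In vehicle SLC7A11 counts came to 1.15%, 3.30% and 3.12% of SLC3A2 counts in libraries 1 to 3. They came to 7.89%, 7.87% and 3.94% at 30 µM AA132 in the same order of libraries, or 6.57% ± 2.27 (SD, n = 3). Under Tg the share was 12.0% ± 0.943, from 11.2% to 13.0%, and lay above all others.
SLC7A5 counts were 29.3% ± 3.91 of SLC3A2 counts in vehicle, from 24.9% to 32.0%, the lowest in library 1. At 30 µM AA132 the share was 21.9% ± 0.884, from 21.0% to 22.7%, below every vehicle library. Under Tg it was 47.2% ± 2.66, with the lowest at 44.7%, above every vehicle library. These shares compare the same pair of genes between conditions and depend on transcript length, so they give no number of molecules, and no test was run on them. The SLC7A11 shares of 1.15% and 3.94% came from the libraries whose long genes were lowest against short ones. The canonical transcript has 9645 bases for SLC7A11 and 1885 for SLC3A2, and the part of length in these shares was not tested.

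**Figure D2:**
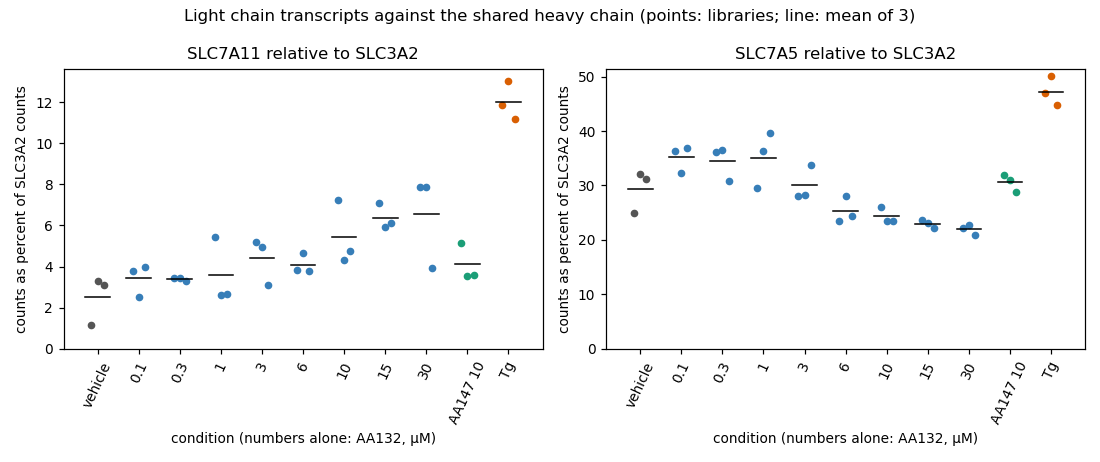
Counts of SLC7A11 (left) and SLC7A5 (right) as a percent of SLC3A2 counts in each of the 33 libraries (points, libraries 1 to 3 from left to right within a condition), with the mean of 3 as a line. SLC7A5 has a mean of 29.3% in vehicle, 21.9% at 30 µM AA132 and 47.2% under Tg, while SLC7A11 is higher than in vehicle at both.

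The carriers of cationic amino acids differed in level. SLC7A1 (CAT1, which takes up arginine and lysine, chromosome 13, 29509414 to 29595688, minus strand, 13 exons) had 46.6, 75.1 and 73.1 CPM in vehicle, with library 1 low. At 30 µM AA132 it had 97.8, 97.7 and 82.9 CPM and under Tg 186, 189 and 202 CPM, neither of which overlapped vehicle. The log2 fold change was 1.57 (SE 0.12, adjusted p = 1.41e-12) under Tg and 0.51 (SE 0.12) at both 15 and 30 µM AA132 (adjusted p = 0.011 and 0.0055).
Without vehicle library 1 these values were 1.37 under Tg, 0.32 at 15 µM (adjusted p = 0.0584) and 0.32 at 30 µM (adjusted p = 0.0244). The call at 15 µM was also lost without 15 µM library 3 (adjusted p = 0.0554). SLC7A3 (CAT3, chromosome X, 70925579 to 70931125, minus strand, 12 exons) was close to absent outside Tg. It had 8, 5 and 3 counts in the vehicle libraries, 15, 22 and 24 at 30 µM AA132, and 95, 91 and 68 under Tg.
In CPM these were 0.222, 0.136 and 0.080 in vehicle, 0.399, 0.599 and 0.666 at 30 µM, and 2.58, 2.48 and 1.85 under Tg, and the groups did not overlap. Its log2 fold change of 3.96 (SE 0.53, adjusted p = 3.95e-07) under Tg was the largest of the members and its standard error the widest. At 30 µM AA132 it was 1.91 (SE 0.57, adjusted p = 0.0369). That call was lost without vehicle library 2 or 3 or 30 µM library 2 or 3 (adjusted p 0.0828 to 0.134). At 0.3 µM AA132 library 1 had 0 counts of SLC7A3, where counting error alone allows up to 3, and under AA147 the libraries had 5, 3 and 2 counts.

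Of the SLC1 family, SLC1A4 (ASCT1, a carrier of alanine, serine and cysteine, chromosome 2, 64988477 to 65023865, plus strand, 8 exons) had the lowest adjusted p of the members between 30 µM AA132 and Tg (1.49e-14). Vehicle had 32.7, 31.8 and 36.7 CPM and Tg 158, 154 and 160 CPM, a log2 fold change of 2.22 (SE 0.09, edgeR adjusted p = 3.8e-19). At 30 µM AA132 it had 53.7, 60.4 and 55.8 CPM, above vehicle without overlap but far below Tg (log2 fold change 0.75, SE 0.09, adjusted p = 1.01e-06). Under AA147 it had 35.3, 37.3 and 37.8 CPM and overlapped vehicle. At 10 µM AA132 SLC1A4 missed the threshold (0.30, adjusted p = 0.106) and passed it without 10 µM library 1 (0.42, adjusted p = 0.00399).
SLC1A5 (ASCT2, the main glutamine carrier of many cultured lines, chromosome 19, 46774883 to 46788594, minus strand, 8 exons) was the most abundant member per kb in vehicle and had the smallest rise under Tg. Its vehicle libraries had 417, 350 and 351 CPM, with library 1 high. Tg gave 673, 635 and 657 CPM and 30 µM AA132 508, 530 and 563 CPM, all above vehicle. The log2 fold change was 0.81 (SE 0.07, adjusted p = 5.17e-11) under Tg and 0.52 (SE 0.07, adjusted p = 9.82e-06) at 30 µM. At 10 µM SLC1A5 missed the threshold (0.25, adjusted p = 0.0738) and passed it without vehicle library 1 (0.34, adjusted p = 0.00478) or without 10 µM library 1 (0.34, adjusted p = 0.00252).

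SLC6A9 (GlyT1, a sodium-driven glycine carrier, chromosome 1, 43991500 to 44031467, minus strand, 14 exons) had the lowest p-value of all genes at the top AA132 dose. It had 22.3, 19.4 and 18.9 CPM in vehicle. The AA132 libraries had 41.2, 43.3 and 44.4 CPM at 6 µM, 29.9, 59.3 and 53.3 at 10 µM, 58.7, 60.6 and 63.8 at 15 µM, and 71.6, 70.4 and 79.1 at 30 µM. Library 1 of 10 µM lay among the AA147 libraries, which had 26.2, 30.9 and 31.9 CPM.
Under Tg SLC6A9 had 188, 196 and 193 CPM. Against vehicle SLC6A9 was higher by 1.09 on the log2 scale (SE 0.15, edgeR adjusted p = 6.1e-05) at 6 µM, 1.23 (SE 0.15) at 10 µM, 1.59 (SE 0.15, adjusted p = 6.42e-08) at 15 µM and 1.87 (SE 0.15, adjusted p = 2.36e-09) at 30 µM. Without 10 µM library 1 the value at 10 µM was 1.47. By p-value it ranked 6 of 17800 genes at 10 µM, 2 at 15 µM and 1 at 30 µM. Under Tg the log2 fold change was 3.25 (SE 0.16, adjusted p = 2.22e-17).

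The system A carriers SLC38A1 (SNAT1) and SLC38A2 (SNAT2), which take up small neutral amino acids such as glutamine with sodium, are neighbours on chromosome 12 (46183063 to 46270017 and 46358188 to 46372773, both minus strand, 17 and 16 exons). SLC38A1 had 34.6, 69.5 and 72.8 CPM in vehicle, 83.1, 83.0 and 63.9 CPM at 30 µM AA132, and 160, 146 and 149 CPM under Tg. The Tg libraries stood apart, while vehicle and 30 µM overlapped. It rose under Tg (log2 fold change 1.37, SE 0.14, edgeR adjusted p = 2.12e-09, or 1.09 without vehicle library 1) and was the member not called at any AA132 dose in this fit. It was called at 15 and 30 µM with no filter on low counts (adjusted p = 0.000165 and 0.000354) and without vehicle library 2 or 3 (adjusted p 0.0198 to 0.0354).
At 30 µM its log2 fold change was 0.38 (SE 0.14, adjusted p = 0.1), or 0.11 without vehicle library 1 and 0.49 without 30 µM library 3 (adjusted p = 0.0465). The adjusted p over all alternatives ran from 0.000354 to 0.605. At 0.1 to 10 µM the direction of SLC38A1 turned without vehicle library 1, for example from 0.23 to -0.045 at 10 µM, with no value passing the threshold. The same held for SLC38A1 under AA147 (0.18 to -0.084) and for SLC38A2 at 0.1 µM (0.080 to -0.036). SLC38A2 had 361, 494 and 447 CPM in vehicle, 602, 633 and 564 CPM at 30 µM and 919, 953 and 911 CPM under Tg, with no overlap.
Its log2 fold change was 1.10 (SE 0.08, adjusted p = 1.66e-13) under Tg, 0.47 (SE 0.08, adjusted p = 0.000115) at 30 µM and 0.33 (SE 0.08, adjusted p = 0.0158) at 10 µM. The call at 10 µM was lost without vehicle library 1 (0.21, adjusted p = 0.0646) or without 10 µM library 1 (0.28, adjusted p = 0.0638). SLC7A11, SLC7A1 and SLC38A1, the members with canonical transcripts over 6 kb, and SLC38A2 had clearly lower values in vehicle library 1 than in libraries 2 and 3, and the part of transcript length in these results was not tested.

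**Figure D3:**
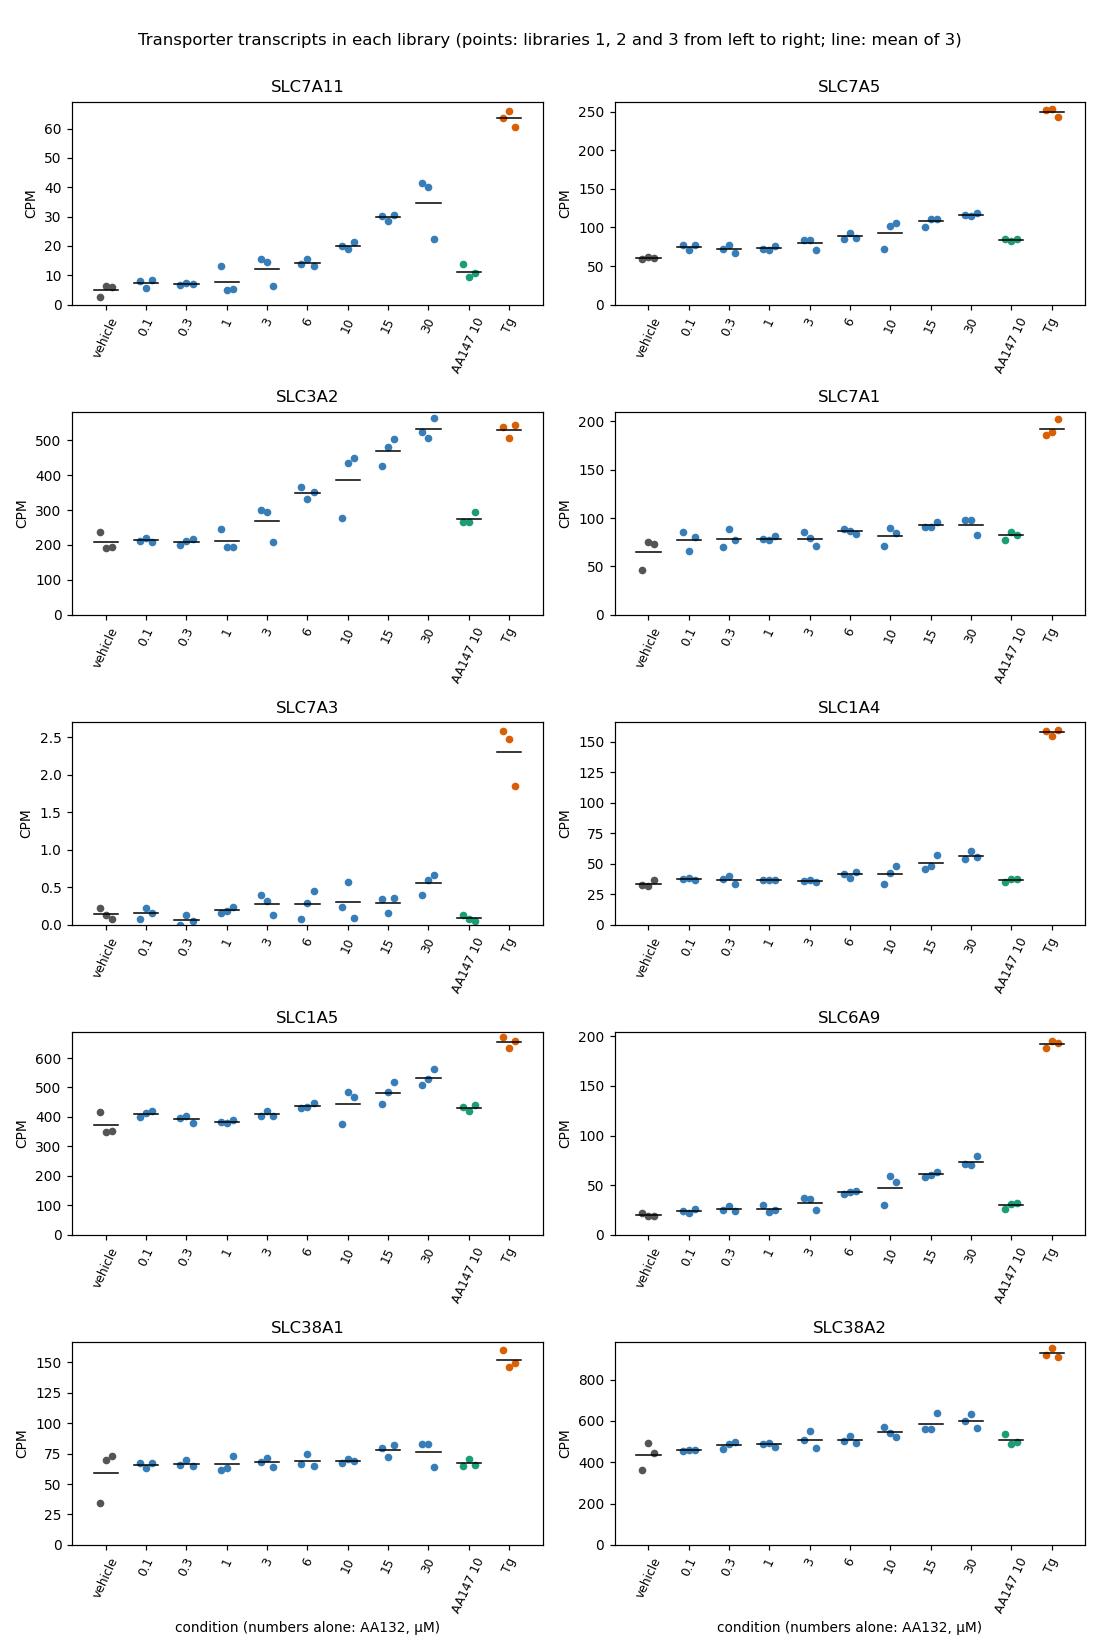
CPM of the 10 transporter transcripts in each library, with conditions along the horizontal axis (numbers alone are AA132 in µM), libraries as points and the mean of 3 as a line. The 3 Tg libraries lie above all others in every panel but that of SLC3A2, where 30 µM AA132 reaches 508 to 564 CPM and Tg 507 to 543 CPM.

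Over the 24 AA132 libraries alone, which leaves vehicle out, all 10 transcripts rose with log10 dose (9.82% of the 17554 genes tested were called rising). The slope, in log2 units per 10-fold dose, was steepest for SLC7A11 (1.00, SE 0.10, edgeR adjusted p = 3.7e-09). SLC7A3 followed at 0.84 (SE 0.20, adjusted p = 0.00308), SLC6A9 at 0.67 (SE 0.06, adjusted p = 7.2e-10) and SLC3A2 at 0.58 (SE 0.05, adjusted p = 7.58e-10). SLC7A5 (0.27) and SLC1A4 (0.22) were shallower. SLC38A2 and SLC1A5 (both 0.15), SLC7A1 (0.11) and SLC38A1 (0.088, adjusted p = 0.0137) were the shallowest. With the 30 µM libraries left out 7 of the 10 slopes passed, and the share of all genes passing in that fit is not given.

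**Figure D4:**
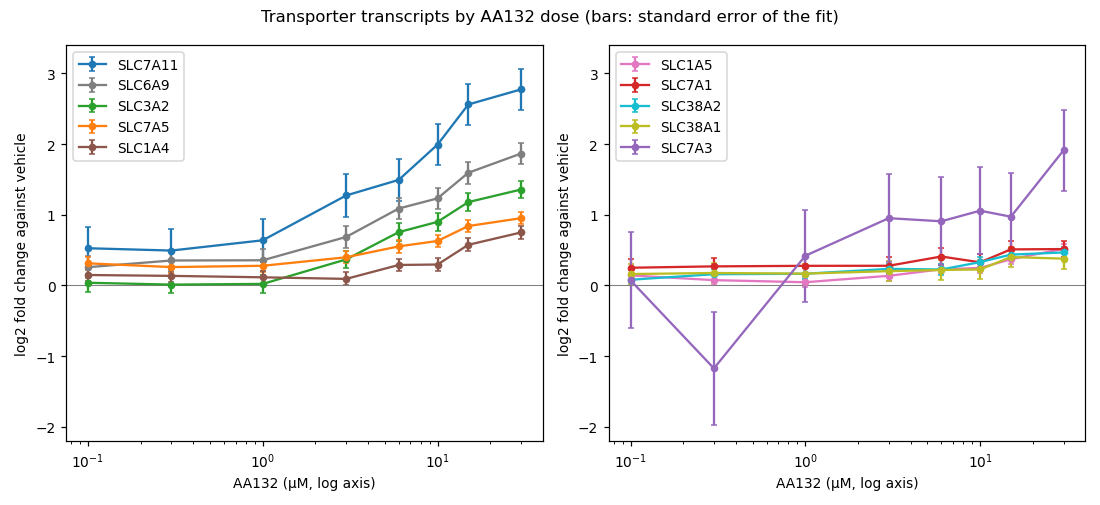
Log2 fold change against vehicle (vertical axis, bars: standard error of the fit) over the AA132 dose in µM (horizontal log axis) for the 10 transcripts. SLC7A11, SLC6A9 and SLC3A2 climb from 3 µM on to 2.77, 1.87 and 1.36 at 30 µM, and SLC38A1 stays at or below 0.40.

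AA132 and AA147 were compared at the matched dose of 10 µM, in 1 pair of compounds and 10 transcripts. In edgeR 0 of the 10 members passed the threshold (0.0674% of all genes passed in either direction). DESeq2 called 2, and the share of all genes it called is not given. An unadjusted edgeR p under 0.05 was found for 4 members and for 1427 of all 17800 genes. SLC6A9 was 0.68 higher under AA132 on the log2 scale (95% interval 0.37 to 0.98, adjusted p = 0.0663) and SLC3A2 0.49 higher (0.24 to 0.74, adjusted p = 0.143). SLC7A11 was 0.83 higher (0.27 to 1.39, adjusted p = 0.365), with all AA132 libraries above all AA147 libraries. SLC7A3, at 9, 21 and 3 counts against 5, 3 and 2, was 1.74 higher (0.38 to 3.09, adjusted p = 0.444), or 0.91 higher (adjusted p = 0.766) without AA132 10 µM library 2, which had the 21 counts.
For the other six the intervals spanned 0, from -0.25 to 0.23 for SLC7A1 and -0.11 to 0.18 for SLC1A5 to -0.033 to 0.32 for SLC7A5. These intervals bound the differences and do not show that the compounds act alike. AA132 10 µM library 1 was the lowest of its condition for 7 of the 10 transcripts. Without it SLC6A9 (0.92, adjusted p = 0.000101) and SLC3A2 (0.68, adjusted p = 0.00212) were higher under AA132 than under AA147. On the other side AA147 library 1 also stood apart from its condition. Its HMOX1 was at 50.4 CPM, against 32.9 and 33.1 CPM in the other AA147 libraries. Without AA147 library 1 neither SLC6A9 nor SLC3A2 was called. Over the alternatives tried, SLC6A9 had adjusted p-values from 4.76e-11 to 0.888 and SLC3A2 from 4.65e-08 to 0.888.

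**Figure D5:**
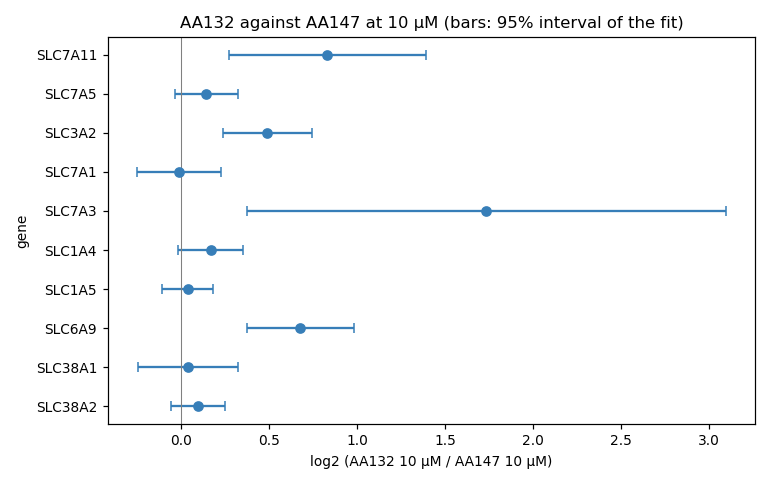
Log2 ratio of AA132 10 µM to AA147 10 µM for each transcript, with the 95% interval of the edgeR fit as a bar and 0 as a grey line. The intervals of SLC7A11, SLC3A2, SLC7A3 and SLC6A9 lie above 0 before adjustment over all genes, and the other six span it.

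Set beside Tg, AA132 at 30 µM gave lower levels of 9 of the 10 transcripts (15.5% of all genes were called lower in this comparison of unlike doses of unlike agents). SLC3A2 did not differ by more than the interval of -0.25 to 0.26 on the log2 scale. The largest gaps were those of SLC7A3 (-2.05), SLC1A4 (-1.48) and SLC6A9 (-1.39), and the smallest called gap that of SLC1A5 (-0.30, SE 0.07, edgeR adjusted p = 0.00154). The call for SLC7A11 (-0.88, SE 0.26, adjusted p = 0.00912) was lost without AA132 30 µM library 3 (-0.64, adjusted p = 0.0862). As a share of the Tg rise in mean CPM, 30 µM AA132 gave 101% for SLC3A2, 56.9% for SLC1A5 and 50.4% for SLC7A11. The share was 31.0% for SLC6A9, 29.7% for SLC7A5 and 18.5% for SLC1A4.

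Of 41 further genes for amino acid transporters of the plasma membrane and lysosome, 28 were tested. Under Tg 5 rose and 8 fell, where 16.2% of all genes were called higher and 15% lower, with a median log2 fold change of 0.040 against 1.81 for the 10 members. Of these SLC43A1 (LAT3, a carrier of large neutral amino acids) rose from 5.52 ± 0.53 to 19.6 ± 0.635 CPM (1.83, SE 0.12, edgeR adjusted p = 1.13e-13), SLC7A7 rose by 1.17 to 0.554 CPM, and SLC6A20 fell by 1.53 to 0.263 CPM. At 10 µM AA132 0 of the 28 were called, and the median was 0.045 against 0.479 for the members. Of the 28, 6 had an unadjusted edgeR p under 0.05, as did 2293 of all 17800 genes tested.
At 30 µM 5 rose and 0 fell, where 3.86% of all genes were called higher and 3.19% lower, with a median of 0.133 against 0.850. Of these 5 the largest changes were those of SLC38A3 (0.75, adjusted p = 0.0128), SLC43A1 (0.54, adjusted p = 0.0066) and SLC38A9, a lysosomal sensor of arginine (0.51, from 82.8 to 118 CPM, adjusted p = 0.000266). A list of 12 genes of the integrated stress response (ATF4, DDIT3, ATF3, TRIB3, CHAC1, ASNS, PSAT1, SESN2, CEBPB, CEBPG, VLDLR and STC2) had 12 called higher under Tg (median 2.12) and 11 at 30 µM AA132 (median 0.720). In these comparisons 16.2% and 3.86% of all genes were called higher. Between 30 µM AA132 and Tg all 12 were called lower (median -1.43), where 15.5% of all genes were called lower. Under AA147 edgeR called 0 genes of that list, with 7 at an unadjusted p under 0.05, as were 1211 of all 17800 genes.
A list of 11 NRF2 target genes (HMOX1, NQO1, GCLM, GCLC, TXNRD1, SRXN1, PGD, ME1, TALDO1, SLC48A1 and OSGIN1), trimmed after its values were seen, had 6 called higher and 2 lower under Tg (median 0.311) and 8 higher at 30 µM AA132 (median 0.609). Of all genes 16.2% were called higher and 15% lower under Tg, and 3.86% higher at 30 µM AA132. Between 30 µM AA132 and Tg 7 of the 11 were called higher and 0 lower (median 0.472), where 14.4% of all genes were called higher. Under AA147 edgeR called 0 of these 11, with 7 at an unadjusted p under 0.05, as were 1211 of all 17800 genes.

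The genes whose condition means ran most like those of a member were in part other members. Over the 11 conditions, by Pearson correlation of mean log2 CPM, SLC7A1 and SLC38A1 were each other's nearest gene (r = 0.996), and the nearest to SLC38A2 was SLC7A5 (r = 0.993). SLC1A4 ran closest to SHMT2 (r = 0.998) and SESN2 (r = 0.996), SLC7A5 to SURF4 (r = 0.996) and CHAC1 (r = 0.994), and SLC3A2 to TTC17 and GCLC (both r = 0.981). The nearest gene was ATP6V0A2 for SLC7A11 (r = 0.984) and IFRD1 for SLC6A9 (r = 0.988). It was ZNF678 for SLC1A5 (r = 0.985) and SMOX for SLC7A3 (r = 0.969). Over the 8 AA132 doses SLC6A9 was nearest to SLC3A2 (r = 0.996), SLC7A5 to TRIB3 (r = 0.998) and SLC3A2 to GPT2 (r = 0.996). SLC7A11 was nearest to LYPD3 (r = 0.993), before SLC3A2 (r = 0.992). These describe condition means from the same libraries, in which Tg or the top dose weighs most, and the lowest value between members was 0.677 over the conditions (SLC38A1 and SLC3A2) and 0.670 over the doses (SLC38A1 and SLC7A3).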

How the data were processed

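The authors deposited a table of expected counts (estimated read totals per gene) for 33 libraries, which the file headers call total reads on a linear scale. Build GRCh38.p7 is named, per the submitters' processing notes. The aligner, counting tool, annotation and use of strand are not given in the sources used here. The lowest value, 0.009, fills 43.5% of cells and was set to 0. Counts were rounded, and 98 entries that shared 45 names were summed by name.

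Differential expression used edgeR 4.0.16 (R 4.3.3): quasi-likelihood F-test, TMM scaling, the edgeR filter on low counts (17800 genes kept), all 11 conditions in 1 fit without a block, and Benjamini-Hochberg adjustment over all genes within a comparison, at a threshold of 0.05. Each of 12 comparisons had its own adjustment, and the AA132 dose slope was fitted on 24 libraries. Libraries of a condition differed beyond counting error (chi-square per degree of freedom 4.48 to 59.4, median 7.56) and were treated as replicates. The model was tested on simulated counts. These held no libraries that stand apart from their condition, so that test does not cover the effect of such libraries. Levels per kb used the GENCODE v44 canonical transcript. Promoter windows are RefSeq's, on GRCh38.p14. Depth limits SLC7A3 most, and intervals cover counting error or library spread only.

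The 10 members, the further lists and the rules were chosen with earlier results of these data known. 1 gene of the NRF2 list and 1 marker are not reported here. All members are named, and from the further transporters the 3 largest called changes under Tg and at 10 and 30 µM AA132. For each member the 3 most alike genes were found. The nearest over the 11 conditions is printed for each member, with some of the others. Alternatives were DESeq2 1.42.0, its size factors, no filter, a stricter filter (1 CPM in 3 libraries), 2-condition fits, a minimum log2 fold change of 1, a replicate block, each library left out, and for the slope the 30 µM dose left out or vehicle added. The joint removal of the libraries that stand apart was chosen after seeing the data.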

Additional observations from a re-analysis of the deposited data

How the results depend on the processing

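No member changed direction where it was called, and the 10 calls under Tg held in all 41 alternative fits, with 9 left under a minimum absolute log2 fold change of 1. Counts of members called moved as follows. The share of all genes called in each alternative fit is not given, so these counts do not set the members apart from other genes. Without a filter on low counts they were 5 under AA147, 1 at 0.1 µM, 1 at 1 µM and 4 at 3 µM AA132, 5, 7, 9 and 10 at 6, 10, 15 and 30 µM, and 3 for AA132 against AA147. In that fit the edgeR adjusted p of SLC7A11 under AA147 went from 0.243 to 3.87e-18, with a log2 fold change of 1.16 both times. DESeq2 gave 3 at 3 µM, 5 at 6 µM (SLC7A1 added), 7 at 10 µM (SLC1A4 and SLC1A5 added) and 2 for AA132 against AA147. With only the 2 conditions compared in the fit, they were 0 under AA147, 3 at 6 µM (SLC7A11 lost, adjusted p = 0.106), 1 at 10 µM, 4 at 15 µM and 5 at 30 µM. A minimum absolute log2 fold change of 1 left 0 under AA147, 2 at 6 µM, 2 at 10 µM, 3 at 15 µM, 4 at 30 µM and 5 for 30 µM AA132 against Tg. Without AA132 1 µM library 1 and 3 µM library 3 the counts were 2 under AA147, 4 at 3 µM and 2 for AA132 against AA147, and with vehicle library 1 also left out 3, 4 and 3, beside 5 at 6 µM and 7 at 15 µM. Of the 10 dose slopes 7 passed without the 30 µM dose. Under the stricter filter, which removed SLC7A3 before the test, the other 9 passed. Leaving out 1 library at a time gave 0 to 1 under AA147, 0 to 3 at 3 µM, 4 to 6 at 6 µM, 5 to 6 at 10 µM, 7 to 9 at 15 µM, 8 to 9 at 30 µM, 0 to 2 for AA132 against AA147 and 8 to 9 for 30 µM AA132 against Tg. The cause was not tested. Library numbers did not pair the samples: deviations of same-numbered libraries correlated at 0.003 on average (-0.148 to 0.182), 13 of 33 libraries correlated best with their own number, and a replicate block changed no count of members, with 10 called under Tg, 1 under AA147 and 9 at 30 µM AA132.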
